A study of Drosophila melanogaster with 4 samples.

Results

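Chromosome arm 3R held 387 of the 1684 binding sites of cap'n collar (CNC) in one deposited list of ChIP-seq peaks from adult female Drosophila melanogaster. Every peak placed on 3R was taken, whatever its length or score. The arm thus carried 23.0% of the list and 23.6% of the 1641 peaks on the 5 major arms. The other 1254 of those lay on 2L, 2R, 3L and X, and these 4 arms served as the comparison. Coordinates are those of FlyBase release 5, counted from 1.

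The study immunoprecipitated crosslinked chromatin with KW0-CNC, a polyclonal rabbit antibody raised against a fragment of CNC. It has 2 ChIP libraries and 2 input libraries, all from adult females 2 to 3 days old of the strain Y cn bw sp. ChIP and input flies shared one genotype. On the X chromosome it carried y[1] and oc[R3.2]. On the second chromosome it had the markers cn[1], bw[1] and sp[1], together with CG33964[R4.2], Gr22d[1] and Gr22b[1]. On the third it had Rh6[1], GstD5[1] and LysC[1] as well as MstProx[1] and lab[R4.2]. The labels name no dissected tissue, so the tissue in which a site was bound is not known. The list gives each peak a start, an end and the score that the authors' caller assigned to it, and pools the libraries. The values below therefore carry no replicate error. Read depth is unknown. Which statistic of the caller the score is was not given in the sources used here, and it serves only to rank peaks within the list.

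CNC belongs to the family of basic leucine zipper factors that includes the vertebrate NRF proteins. It binds DNA together with a small Maf protein, is held back by Keap1, and turns on genes for glutathione synthesis and detoxification under oxidative stress. In the fly embryo the cnc locus also patterns head segments and limits the action of the homeotic gene Deformed (Dfd). Some genes tied to CNC are themselves on 3R. Of 24 such genes, listed from general knowledge, 21 matched the RefSeq gene table of release 6 by symbol, and Trxr-1, Prx2540-1 and Jafrac1 did not. On 3R were 10 of the 21, while 24.5% of the protein-coding genes of the 5 arms are on 3R. The list leans to one gene cluster and says nothing of pathway genes at large. The 10 were cnc itself, Keap1, the glutathione synthesis subunit gene Gclm, the homeotic gene Dfd, which is no stress gene, and 6 of the GstD family of glutathione transferase genes GstD1, GstD2, GstD4, GstD5, GstD9 and GstD10. Only the arm of each gene was read from that table, since its coordinates belong to a different assembly. No peak is therefore assigned to a gene here.

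CNC peaks lay along 27.6 Mb of 3R. The first lay at 12491 to 12881, was 391 bp long and scored 13.06. The last lay at 27572239 to 27573661, was 1423 bp long, scored 33.49 and stood 285 kb beyond its neighbour. Between them, 241.5 kb of sequence lay under peaks, or 0.876% of that span. There were 14.0 peaks per Mb on 3R, against 14.7 per Mb on the other 4 arms together, a ratio of 0.956. An exact binomial 95% interval ran from 0.851 to 1.07. This interval, like the others below, covers counting error only and takes peaks as independent, which neighbouring peaks are not. The other arms ran from 13.3 per Mb on 2L to 17.7 per Mb on 2R, and 3R had the third highest value. These spans leave out sequence before an arm's first peak, which started at 1854437 on 2R and at 403513 on X. With spans counted from position 1, 3R had 14.0 peaks per Mb and the other arms 14.3, a ratio of 0.982. Per 1000 protein-coding genes in the release 6 table, 3R had 114 peaks and the other arms 120. A permutation over arms, with 1 arm against 4, could not give a two-sided p below 0.2, so no such test was used.

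Peaks were spread unevenly along the arm. On 3R and 2R, low coordinates lie towards the centromere and high ones towards the telomere, while on 2L, 3L and X it is the other way round. Every 1 Mb bin held at least 5 peaks, with a median of 15. The fullest bin, from 10 to 11 Mb, held 24 peaks with a median score of 15.9 and 1 score above 100. The next was the bin from 19 to 20 Mb, with 23 peaks. The emptiest bins had 5 peaks each and began at 2, 24 and 27 Mb, the last of them cut short by the end of the span. Over the 27 bins before that one, the variance of the counts was 1.91 times their mean. The other arms, each without its first and last bin, had 4.25 on 2L, 3.06 on 2R, 2.56 on 3L and 1.05 on X. By this measure the counts on 3R were more even than on any other arm except X.

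Counts were high from 19 to 22 Mb and mostly low beyond 22 Mb. These limits were chosen after the counts were seen, so the values are a description. The bins from 19 to 22 Mb held 63 peaks, or 21.0 per Mb. Of these, 14 (22.2%) were longer than 1000 bp and 13 (20.6%) scored above 100. From 22 Mb to the last peak there were 48 peaks, or 8.61 per Mb, of which 3 (6.25%) were longer than 1000 bp and 4 scored above 100. That stretch was not sparse throughout, since the bin from 25 to 26 Mb held 16 of its peaks. The median score was 22.6 from 19 to 22 Mb and 19.6 beyond. With every arm read from the centromere side, peaks from 60 to 80% of the span made up 28.2% of the peaks on 3R, against 20.6 to 25.8% on the other 4 arms. The last 20% of the span, on the telomere side, held 11.9% of them on 3R and 14.7 to 25.6% on the other arms. With each arm's span divided at its midpoint, 48.3% of 3R peaks (187 of 387) and 44.7% of the other arms' peaks (560 of 1254) fell on the high-coordinate side. The difference was 3.66 percentage points, with a Newcombe 95% interval from -2.00 to 9.33, so a difference was not resolved. This sets the telomere side of 3R against the centromere side of 2L, 3L and X. By telomere side on every arm, an alternative added after seeing the data, the shares were 48.3% on 3R and 52.7% on the other arms (661 of 1254). The difference then had the opposite sign, -4.39 points with an interval from -10.0 to 1.30.

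**Figure D1:**
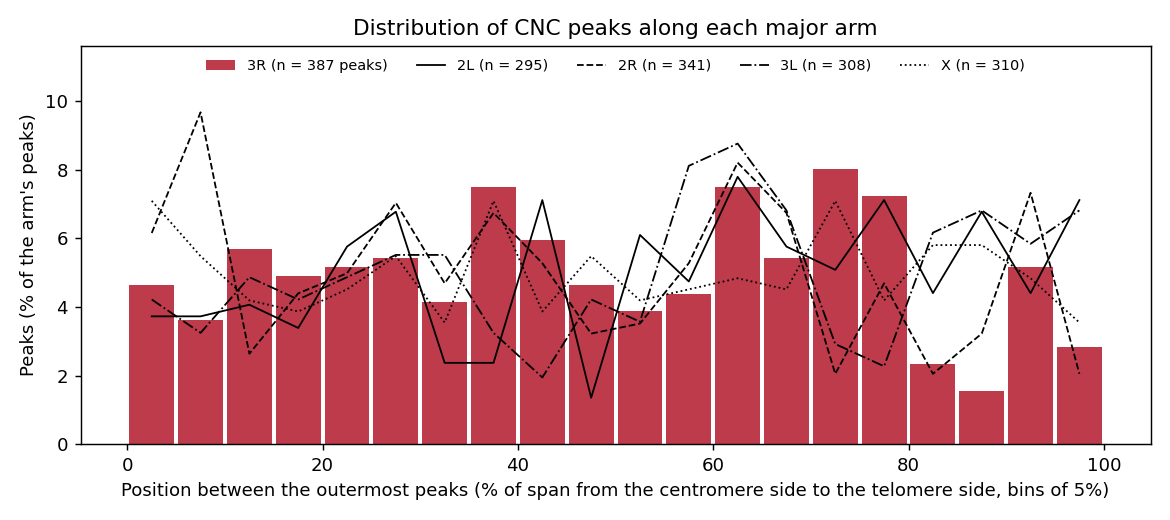
Share of each arm's peaks (vertical axis, percent) in 20 equal bins between its first and last peak (horizontal axis, percent of span from the centromere side to the telomere side); red bars are 3R and black lines the other 4 arms. On 3R the 4 bins from 60 to 80% hold 28.2% of the peaks, and the 4 bins after them 11.9%.

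Most 3R peaks were short and of low score. The median length was 464 bp (interquartile range 307 to 748 bp), from 201 to 6723 bp, against a median of 443 bp on the other arms. Scores ran from 6.89 to 441.8, with a median of 20.9 on 3R and 19.8 on the other arms. The median score of 3R was the highest of the 5 arms, whose other members lay between 19.1 and 20.6. A score above 100 was reached by 47 peaks on 3R (12.1%) and by 131 on the other arms (10.4%). The difference of 1.70 percentage points had a Newcombe 95% interval from -1.71 to 5.66. Above 200 there were 16 peaks on 3R (4.13%) and 32 on the other arms (2.55%), a difference of 1.58 points with an interval from -0.297 to 4.17. Both intervals held 0, so a surplus of high scores on 3R was not resolved. Above 100 the other arms ran from 8.81% on 2L to 13.2% on 2R. Above 200 they ran from 0.649% on 3L to 4.11% on 2R.

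The 10 highest-scoring peaks of 3R lay in bins from 1 to 2 Mb up to 21 to 22 Mb, and no bin of 1 Mb held more than 2 of them. The leading site, at 1614388 to 1621110, scored 441.8 and was 6723 bp long. It stood alone, with 107 kb and 192 kb of peak-free sequence on its sides. Second by score was the peak at 21448847 to 21450645, 1799 bp long, with 381.74. It was followed by the peak at 19014137 to 19017196, with 361.04 over 3060 bp. The peaks at 8194707 to 8196783 and at 12902799 to 12905544 had almost the same score, 353.27 and 353.04. The sixth, at 14741026 to 14742947, scored 303.77.

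The next 4 sites scored between 253.08 and 274.05. The peak at 11372966 to 11374106 reached 274.05 over only 1141 bp, the shortest of the 10. The one at 8255633 to 8259082 scored 267.42 and, at 3450 bp, was the second longest on the arm. The peak at 14397682 to 14399648 scored 266.05 and stood 122 kb and 341 kb from its neighbours, the wider side ending at a 206 bp peak beside the sixth site. The tenth, at 7515440 to 7516851, scored 253.08 over 1412 bp. All 10 were longer than 1000 bp, and 6 of them were also among the 10 longest.

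**Figure D2:**
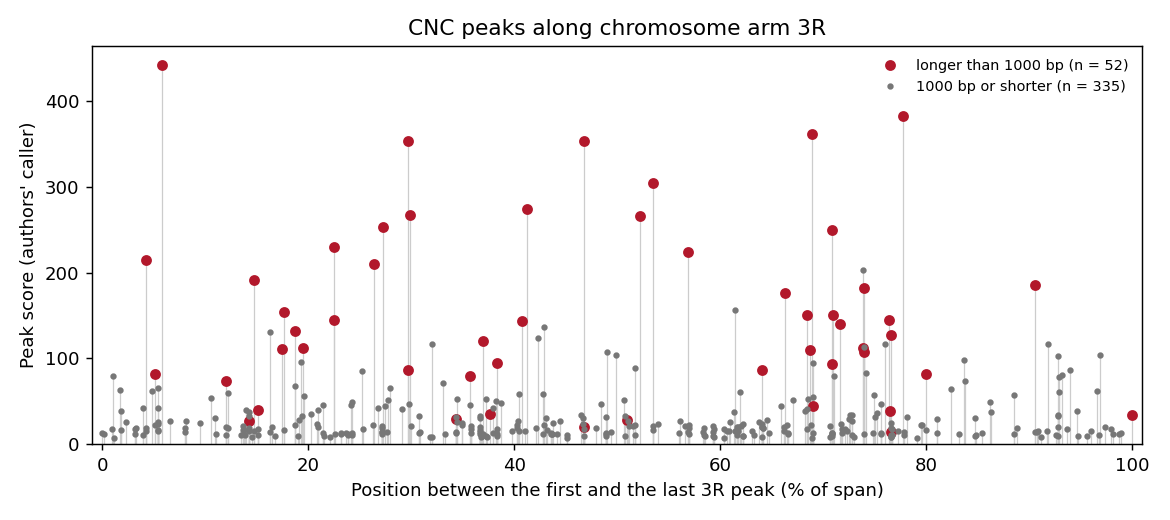
Score of each of the 387 peaks on 3R (vertical axis, score of the authors' caller) by position (horizontal axis, percent of the span from first to last peak); large red points are the 52 peaks longer than 1000 bp and small grey points the other 335. The highest point, 441.8, stands near the low-coordinate end, and red points are few beyond 80% of the span.

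Broad peaks, taken as those over 1000 bp, numbered 52 on 3R. They were 13.4% of the arm's peaks and held 35.3% of its sequence under peaks. On the other arms 178 of 1254 peaks were broad (14.2%), a difference of -0.758 percentage points with a Newcombe 95% interval from -4.42 to 3.42. The other arms ran from 10.7% on 3L to 16.3% on 2L. Above 2000 bp there were 9 peaks on 3R (2.33%) and 25 on the other arms (1.99%).

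The 10 longest peaks of 3R ran from 1967 to 6723 bp. After the 6723, 3450 and 3060 bp sites above came the peak of 2746 bp that scored 353.04. The fifth, 2186 bp at 19556908 to 19559093, scored 249.12, and the sixth, 2153 bp at 6212907 to 6215059, scored 230.24. The seventh was the 2077 bp site that scored 353.27, and the tenth the 1967 bp site that scored 266.05. The eighth, 2058 bp at 20381373 to 20383430, had a lower score, 111.81. The ninth was unlike the rest. It covered 2057 bp at 9481035 to 9483091 and scored only 29.59, rank 144 of the 387 peaks.

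Broad peaks were not all high in score. Their median score on 3R was 136.5, from 14.38 to 441.8, against a median of 18.6 among the 335 shorter peaks. A score above 100 was found for 34 of the 52 broad peaks on 3R (65.4%) and for 104 of the 178 on the other arms (58.4%). The remaining 18 on 3R had a median score of 42.3. Of these 18, 11 (61.1%) had another peak within 1 kb, against 8 of the 34 with scores above 100 (23.5%). On the other arms the same shares were 40.5% of 74 and 31.7% of 104. The lowest of the 18 was the 1223 bp peak at 21119370 to 21120592, which scored 14.38 and lay 75 bp from its neighbour. Conversely, 13 peaks scored above 100 without reaching 1000 bp. The highest was 716 bp long, at 20369070 to 20369785, with 203.19. These single peaks were picked after their values were seen.

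Length and score went together on 3R as they did elsewhere, with a Spearman's rho of 0.81 over the 387 peaks. Over the other 4 arms it lay between 0.80 and 0.84. Edges and score both came from the authors' caller and are not separate measures, so no test is given.

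**Figure D3:**
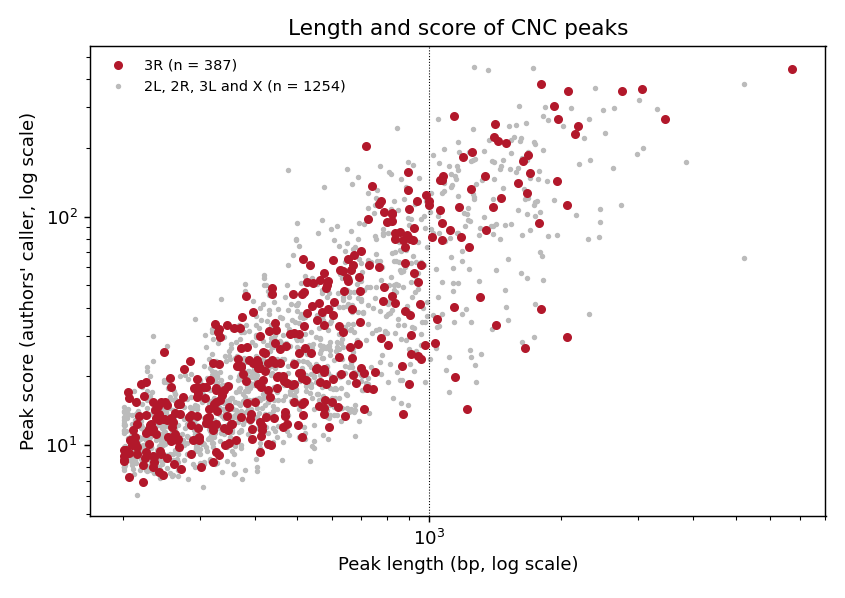
Score against length for the 387 peaks on 3R (red) and the 1254 peaks on 2L, 2R, 3L and X (grey), on log scales; the dotted line marks 1000 bp. Red points right of the line and low on the page include the 2057 bp peak that scored 29.59 and the 1223 bp peak that scored 14.38.

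The 52 broad peaks of 3R lay at widely varying distances from one another. Their spacing was not measured on the other arms, nor compared with what random placement would give. The median distance from one broad peak of 3R to the next was 286 kb, and 10 of the 51 distances were 20 kb or less. The closest pair lay 471 bp apart and comprised the site that scored 353.27 and a 1118 bp peak that scored 86.97. The longest stretch without a broad peak ran for 2923 kb, from 22056031 to 24978819, and held 15 shorter peaks. It ended at a 1680 bp peak that scored 185.21.

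Neighbouring peaks on 3R were often close together. The median interval between facing edges was 22.6 kb on 3R and 24.1 kb on the other arms. The interquartile range on 3R was 4.07 to 99.4 kb. Of the 386 intervals, 104 (26.9%) were 5 kb or less, against 362 of 1250 (29.0%) on the other arms. The difference was -2.02 percentage points, with a Newcombe 95% interval from -6.93 to 3.23, and the other arms ran from 25.1% on 3L to 31.5% on 2R. At 1 kb or less there were 59 intervals on 3R (15.3%) and 202 on the other arms (16.2%).

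**Figure D4:**
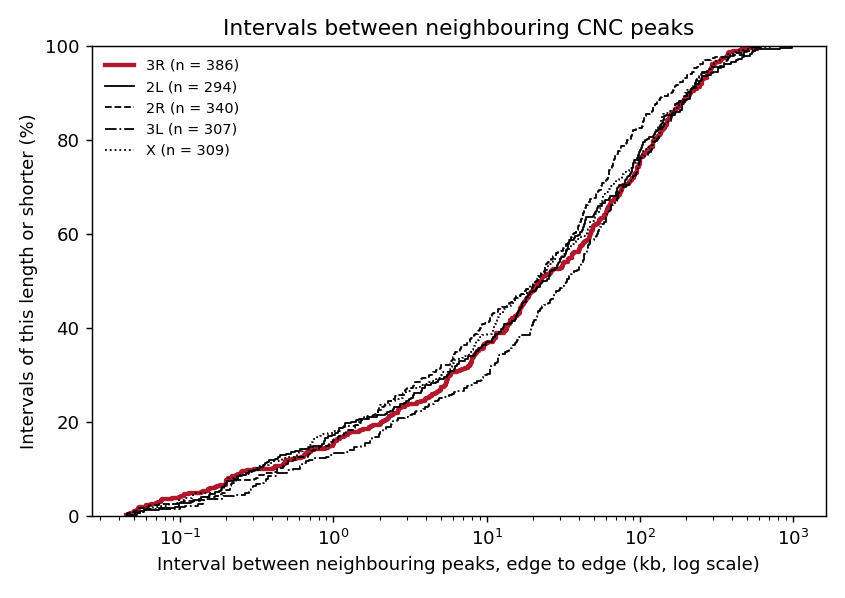
Cumulative share of intervals between neighbouring peaks (vertical axis, percent) by interval length (horizontal axis, kb, log scale) for 3R (red, 386 intervals) and the other 4 arms (black). The 3R curve runs among the others, crosses 50% at 22.6 kb and ends at 599 kb, the shortest maximum of the 5 arms.

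Joining peaks whose facing edges lay within 5 kb turned the 387 peaks into 283 units. Of these, 215 were single peaks, which is 55.6% of all peaks on 3R, against 54.1% on the other arms. Another 47 units were pairs, 11 held 3 peaks, 6 held 4, and 4 held 5 or more. The largest unit on 3R held 6 peaks, as on 3L and X, while the largest held 10 on 2R and 16 on 2L. The 4 largest contained 21 peaks in all, 5.43% of those on 3R, against 92 (7.34%) in such groups on the other arms.

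The group of 6 covered 10.0 kb at 19549109 to 19559093, between 44 kb and 19.2 kb of peak-free sequence. It opened with a 1071 bp peak that scored 93.66 and closed with the 2186 bp peak that scored 249.12. The 4 peaks between them were 216 to 515 bp long and scored from 9.31 to 13.57. The last of these ended 44 bp before the strongest peak.

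The other 3 groups held 5 peaks each. At 3933463 to 3945197, 5 peaks with scores from 15.72 to 37.06 covered 11.7 kb, and the broadest, 1652 bp, scored 26.58. At 17675604 to 17683352, the first peak, of 1351 bp, scored 86.95, and the 4 after it scored 20.42, 8.97, 19.98 and 23.72. At 25589751 to 25603985, the middle peak scored 102.36 over 824 bp and the others between 9.11 and 34.6.

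Pairs of strong peaks at short range were few on 3R and on the other arms. Scores above 100 were themselves few, 12.1% of peaks on 3R and 10.4% on the other arms. The number of such pairs to be expected from these shares alone was not worked out. The counts below therefore do not show that strong peaks lay apart from each other. Of the 47 peaks on 3R with a score above 100, 8 (17.0%) had another peak within 1 kb. Among the 59 pairs of 3R peaks within 1 kb, 9 had a member above 100, and in none did both exceed 100. The weaker partner scored below 20 in 7 of these 9, and in 31 of the 48 such pairs on the other arms. Of all 3R peaks 48.1% scored below 20, but that is a share of single peaks, not of the weaker member of a pair. The median score of the weaker member was 13.14 over all 59 pairs and 17.37 over the 9. Within 5 kb, 1 of 104 pairs on 3R had both members above 100, against 2 of 362 on the other arms. That pair was the 2153 bp peak that scored 230.24 and a 1072 bp peak that scored 144.55, 2437 bp apart. The site at 19014137 to 19017196, which scored 361.04, had a 247 bp neighbour with a score of 7.4 at a distance of 255 bp. The site that scored 353.04 had a 744 bp partner of 17.67 at 200 bp. The site that scored 303.77 had a weak peak on each side, with 17.13 at 272 bp and 21.64 at 932 bp. The partner of 86.97 beside the site that scored 353.27 was the strongest of the 9. On the other arms 48 of 202 pairs within 1 kb had a member above 100, and again none had both.

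Peak-free stretches were many on 3R, and none between neighbouring peaks exceeded 599 kb. Intervals over 200 kb numbered 42 and made up 46.7% of the span of 3R, against 46.9% of the span of the other arms. The difference of -0.144 percentage points was far inside the spread of the other 4 arms, whose shares ran from 39.8% on 2R to 54.7% on 2L. Intervals over 300 kb made up 21.7% of the span of 3R and 27.6% of that of the other arms, which ran from 22.7 to 35.4%. Above 500 kb there were 2 intervals on 3R and 17 on the other arms, with 3 to 6 on each. The longest on 3R was 599 kb, against 613 to 985 kb on the other arms. Only intervals between peaks are counted here. Sequence before an arm's first peak is left out, and on 2R that peak started at 1854437.

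That interval lay at 23812885 to 24411650, between peaks that scored 37.81 and 57.52. The second, 558 kb, ran from 14893272 to 15451052 between peaks of 23.45 and 13.56. The third, 467 kb at 24511817 to 24978819, ended at the site that scored 185.21. It was parted from the longest by about 100 kb that held 3 peaks. The fourth was 452 kb long, at 19047802 to 19499338, inside the stretch from 19 to 22 Mb where peaks were dense. The fifth and sixth, of 402 kb and 384 kb, flanked each other on the low side of the arm. They ran from 1813659 to 2215872 and from 2252222 to 2635944.

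The remaining 4 of the 10 longest measured 366 to 376 kb. They lay at 12445659 to 12821329, at 22366075 to 22741344, at 15728936 to 16099495 and at 3366931 to 3732979. In all, the 10 intervals covered 4349 kb, or 15.8% of the span, and 6 of them lay past the midpoint of the span. Of the 20 peaks that bounded them, 1 was broad and scored above 100, and their median score was 22.9. Among all 3R peaks 13.4% were broad, 12.1% scored above 100 and the median score was 20.9, so the count of 1 is too small to set them apart.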

How the data were processed

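Peaks are those of the one peak list the authors deposited for 2 CNC ChIP and 2 input libraries. Per the file headers the build is FlyBase release 5 and the caller MACS; per the submitters' processing notes the tools were BWA, MACS2 and CASAVA in versions 1.7.0.2 and 1.7.0.3. The deposited score is the caller's, of unnamed kind; its threshold and the use made of replicates and inputs were not given in the sources used here. Peaks on 3R, and those on 2L, 2R, 3L and X together, were compared with statsmodels 0.14.6, scipy 1.17.1, numpy 2.4.6 and pandas 2.3.3 under Python 3.11.15, and drawn with matplotlib 3.10.9. Spans run from an arm's first to its last peak. Intervals are counted between facing edges. Shares of peaks carry Newcombe 95% intervals. The counting of groups, intervals and broad peaks was tested on simulated arms.

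Named in the text are the 10 highest-scoring and 10 longest peaks of 3R, its first and last peak, groups of 5 or more, the 10 longest intervals and the fullest and emptiest bins. The members, thresholds and this rule were chosen with earlier results of these data known. No sequence is printed, since no genome of release 5 was used here.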

Additional observations from a re-analysis of the deposited data

How the results depend on the processing

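No paired analysis was possible because the peak list pools the libraries, and no replicate could be left out of it. Of 31 alternatives to the 7 comparisons, 27 stayed close to the value as deposited. Close meant within its counting interval or, for empty stretches and for the length and score relation, within 1 SD of the other 4 arms. These limits are wide, so a value called close can still differ. The difference in empty stretches was -0.144 points above 200 kb and -5.92 points above 300 kb, which counted as close. Above 300 kb the share on 3R was the lowest of the 5 arms. The share of peaks past the midpoint moved to a difference of -4.39 points when the telomere side was taken on every arm, by the turning of 2L, 3L and X. The other 3 that moved concern the length and score relation on 3R, judged by the narrow SD of 0.014 among arms. It was 0.70 among the 205 peaks of 3R in the 842 highest-scoring of the list, and 0.77 with peaks within 1 kb joined. As Pearson's r of log2 values, a different statistic from Spearman's rho, it was 0.84. The cause was not tested. Several differences near 0 changed sign. The density ratio was 1.02 among those 842 peaks and 1.02 without 2R. The difference in broad peaks was 2.15 points above 500 bp and 0.332 above 2000 bp, that in close neighbours 1.13 points at 20 kb, and that in empty stretches 2.22 points above 100 kb. Comparisons by telomere side, without 2R or 3L and per protein-coding gene were chosen after seeing the data. How depth limits the detection of weak sites cannot be given without read counts.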

Other observations

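These comparisons were picked with the data in view. With a limit of 5 kb, peaks with a score above 100 lay in groups less often on 3R than on any other arm. With facing edges within 5 kb taken as a group, 15 of the 47 on 3R were grouped (31.9%), against 66 of 131 on the other arms (50.4%), which ran from 42.3% on 2L to 58.1% on X. The difference was -18.5 percentage points, with a Newcombe 95% interval from -32.7 to -1.90 that covers counting error only and was not adjusted for the number of values looked at. It was -15.8 points within 1 kb (interval -27.5 to -0.716) and -20.4 without 2R. The interval held 0 with close peaks joined (-8.64), among the 842 highest-scoring peaks of the list (-12.1) and for scores above 50 (-9.86), and within 20 kb the difference was 4.08 points the other way. Of the 16 peaks on 3R that scored above 200, 9 had no other peak within 5 kb, close to the share among all 3R peaks (55.6%). Longer than 1000 bp were 15 of the 16, against 13.4% of all 3R peaks.

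At a wider scale, 5 peaks of high score on 3R lay close together. Between 20369070 and 20408576, a stretch of 39.5 kb, 5 of 6 peaks scored above 100, from 107.15 to 203.19, and the sixth scored 12.03. No window of 50 kb on the other 4 arms held more than 3 such peaks. The densest there were on 2L and 2R, with 3 each. The 5 peaks included the 716 bp peak that scored 203.19 and the 2058 bp peak that scored 111.81. Of the 5, only the peak that scored 113.22 had another peak within 5 kb and counted as grouped above. The nearest peaks to those scoring 181.74, 107.15, 111.81 and 203.19 were 5.055, 5.577, 8.96 and 11.587 kb away. These therefore counted as ungrouped at 5 kb, some of them by a narrow margin.

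Peaks more than 100 kb from any other numbered 27 on 3R (6.98%) and 60 on the other arms (4.78%). Beyond 200 kb the order was reversed, with 2 on 3R (0.517%) and 12 on the other arms (0.957%). The 2 included the last peak of the arm, which has no neighbour beyond it. End peaks of every arm were judged by the neighbour they had. No interval is given for these shares. The median score of the peaks more than 100 kb from any other was 25.4 on 3R and 17.6 on the other arms. On 3R they included the leading site of the arm and, as the lowest in score, a peak that scored 7.24. The most isolated peak with neighbours on both sides, at 2635945 to 2636482, scored 25.28 and stood 276 kb and 384 kb from them.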
